A study of Mus musculus with 6 samples.

Results

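Proximal tubule genes were examined in newborn mouse kidney and ureter with and without Ahnak. The set held 9 genes, chosen by symbol (Lrp2, Cubn, Slc34a1, Slc5a2, Slc5a12, Hnf4a, Fbp1, Pck1 and Miox), and 9 of 9 were found among the 24532 genes of the deposited table. Bulk RNA-seq libraries were made from whole tissue at postnatal day 1 (PN1): kidney gave 2 libraries per genotype (Ahnak KO and WT) and ureter gave 1 per genotype. The Ahnak KO mice carry a disrupted exon of Ahnak, and Ahnak encodes a very large scaffold protein. The methods speak of 2 biological replicates and give a range for the organs taken, not the number in each library, so the p-values measure the spread between these libraries. The sample labels put both ureter libraries under kidney titles and gave ureter as their source, and the sample protocol text also named a dental tissue.

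The proximal tubule is the first segment of the nephron after the glomerulus. Its brush border takes back filtered glucose, phosphate, organic acids and small proteins, and its cells make new glucose from lactate and amino acids. The ureter carries urine, is lined by urothelium and wrapped in smooth muscle, and has no nephron segments. At PN1 the mouse kidney still forms nephrons, so immature and maturing tubules lie side by side.

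The 9 genes cover the main tasks of the segment. Lrp2 encodes megalin, a very large endocytic receptor (chr2:69424340-69586065, minus strand, GRCm38), and Cubn encodes cubilin, which binds ligands beside megalin (chr2:13276338-13491813, minus strand). Slc34a1 encodes the sodium-phosphate cotransporter NaPi-IIa (chr13:55398187-55415592, plus strand). The glucose cotransporter SGLT2 is encoded by Slc5a2 (chr7:128265657-128272430, plus strand), and a sodium-coupled lactate transporter by Slc5a12 (chr2:110597298-110647779, plus strand). Hnf4a encodes a nuclear receptor that drives the proximal tubule and liver programs (chr2:163506808-163572910, plus strand). Fbp1 encodes fructose-1,6-bisphosphatase (chr13:62864753-62888282, minus strand) and Pck1 the cytosolic phosphoenolpyruvate carboxykinase (chr2:173153048-173159273, plus strand), both enzymes of gluconeogenesis. Miox encodes myo-inositol oxygenase, the first enzyme of inositol breakdown (chr15:89334398-89337015, plus strand). The coordinates are those of GENCODE M21. Slc34a1 overlaps Pfn3, Slc5a2 overlaps BC017158 and Hnf4a overlaps Hnf4aos, each on the opposite strand and each with a row of its own in the table. Cubn also overlaps Gm13270 on the opposite strand, and Hnf4a overlaps Gm25881 on the same strand, both without a row. How strand was used in counting was not given in the sources used here. The part of reads from overlapping genes in the members' counts was not tested.

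Promoter sequence was read for 7 of the 9 genes, 8 promoters in all, from the RefSeq table of GRCm38.p6 with 250 bases before each start. The short HNF1 motif GTTAAT, searched on both strands, lay before 4 of the 7 genes, Slc34a1, Hnf4a at its downstream start, Pck1 and Miox, and before 6.43% of the 32851 promoters in the table. AAAGTCC, a core motif of HNF4, lay before Slc34a1 alone among them and before 3.58% of all promoters. The TATA motif TATAAA lay before Miox alone and before 12.4% of all promoters. The promoters with an HNF1 motif are shown so that these matches can be read in place. All 9 genes share the kidney pattern described below, Lrp2, Cubn and Fbp1 among them, whose windows hold no such match. Each is written 5′ to 3′, with every match to the HNF1 or HNF4 motif on either strand in capitals, and bases inside an annotated exon are left out, which removes the TATA motif of Miox.
Slc34a1, chr13:55399398-55399647, plus strand: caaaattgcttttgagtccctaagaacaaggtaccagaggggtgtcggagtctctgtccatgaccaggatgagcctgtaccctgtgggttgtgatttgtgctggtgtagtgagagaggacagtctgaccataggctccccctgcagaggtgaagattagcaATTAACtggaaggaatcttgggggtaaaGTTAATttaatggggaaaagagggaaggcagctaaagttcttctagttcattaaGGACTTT
Hnf4a, downstream start, chr2:163546943-163547154, plus strand: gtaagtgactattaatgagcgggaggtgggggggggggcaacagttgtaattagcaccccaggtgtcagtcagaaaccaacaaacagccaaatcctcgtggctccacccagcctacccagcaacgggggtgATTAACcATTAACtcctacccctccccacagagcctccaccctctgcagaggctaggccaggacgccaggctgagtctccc
Pck1, chr2:173152823-173153047, plus strand: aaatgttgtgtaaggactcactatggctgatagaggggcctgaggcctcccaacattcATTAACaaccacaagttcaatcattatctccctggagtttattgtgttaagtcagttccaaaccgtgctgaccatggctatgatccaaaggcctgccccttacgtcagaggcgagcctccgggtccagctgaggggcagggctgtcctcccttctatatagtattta
Miox, chr15:89334223-89334397, plus strand: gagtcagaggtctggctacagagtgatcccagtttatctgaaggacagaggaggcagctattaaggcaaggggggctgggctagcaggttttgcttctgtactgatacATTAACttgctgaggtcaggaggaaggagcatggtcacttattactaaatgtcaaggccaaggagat
Slc34a1 and the downstream start of Hnf4a each held the HNF1 motif 2 times, and the 2 copies of Hnf4a stood next to each other with 1 base between. The promoters of Lrp2, Cubn and Fbp1 and the upstream start of Hnf4a held none of the 3 motifs in this window. The printed stretches of Slc34a1 and of the downstream start of Hnf4a lie inside the GENCODE span of their own gene, in an intron of a longer transcript. Slc5a2 and Slc5a12 were not matched.

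The libraries held 36410246 to 66095616 estimated counts. CPM below are these counts divided by the library total with edgeR's TMM factors, on which 3 counts, the limit that a count of 0 allows, came to 0.0422 to 0.1001 CPM per library. Such limits cover counting error only. Ahnak itself was counted in all 6 libraries, with 138.8 and 131.1 CPM in the Ahnak KO kidneys and 183.9 and 189.5 CPM in the WT kidneys. The KO ureter had 630.6 CPM of Ahnak and the WT ureter 728.2 CPM, but in TPM the order was the opposite, with 88.0 in KO and 77.5 in WT, so the ureter counts do not show less Ahnak in KO on both scales. The kidney difference in Ahnak was -0.47 on the log2 scale (standard error 0.096, edgeR unadjusted p = 0.00265, adjusted p = 0.9999), with both KO libraries below both WT libraries. Ahnak KO kidney replicate 1 had 176348 counts of Xist and 0 counts on 4 Y chromosome genes, whereas the other 5 libraries had 17 to 36 and 8415 to 18055. The KO ureter library gave 8.06% of its counts to the ribosomal transcript Rn45s, against 0.496% to 0.632% elsewhere. All 7 urothelium markers and all 7 smooth muscle markers were called higher in ureter, against 21.4% of the 16873 genes tested (edgeR, adjusted p under 0.05). Of 7 loop of Henle and distal tubule markers, 6, Umod and Slc12a1 among them, were at 0 in both ureters. Of all 24532 genes, 8530 were at 0 in the KO ureter and 8291 in the WT ureter, and the share at 0 in both was not counted.

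In kidney, TPM values, which allow for gene length as well as depth, placed the phosphate transporter Slc34a1 first and the glucose cotransporter Slc5a2 last. Slc34a1 had 180 ± 42.1 TPM (SD, n = 4 kidney libraries) and Fbp1 followed with 115 ± 24.7 TPM. Pck1 had 95.5 ± 27.8 TPM, Miox 60.7 ± 15.8 TPM, Lrp2 53.4 ± 15.0 TPM and Hnf4a 50.6 ± 2.67 TPM. Well below them stood Cubn with 13.4 ± 3.08 TPM, Slc5a12 with 8.19 ± 3.65 TPM and Slc5a2 with 7.14 ± 3.76 TPM. Of the 8 pairs of neighbours in this order only Hnf4a and Cubn had ranges that did not overlap, so the other neighbours cannot be ranked by their ranges alone. Within libraries, Slc34a1 stood above Fbp1 in 4 of 4 and Cubn above Slc5a12 in 4 of 4, while Slc5a12 stood above Slc5a2 in 2 of 4. Both endocytic receptors bind ligands together, yet the mean TPM of Lrp2 lay above that of Cubn in this table. The 9 genes summed to 691 and 501 TPM in the Ahnak KO kidneys and to 473 and 670 TPM in the WT kidneys, against 10.5 TPM in the KO ureter and 12.2 TPM in the WT ureter.

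**Figure D1:**
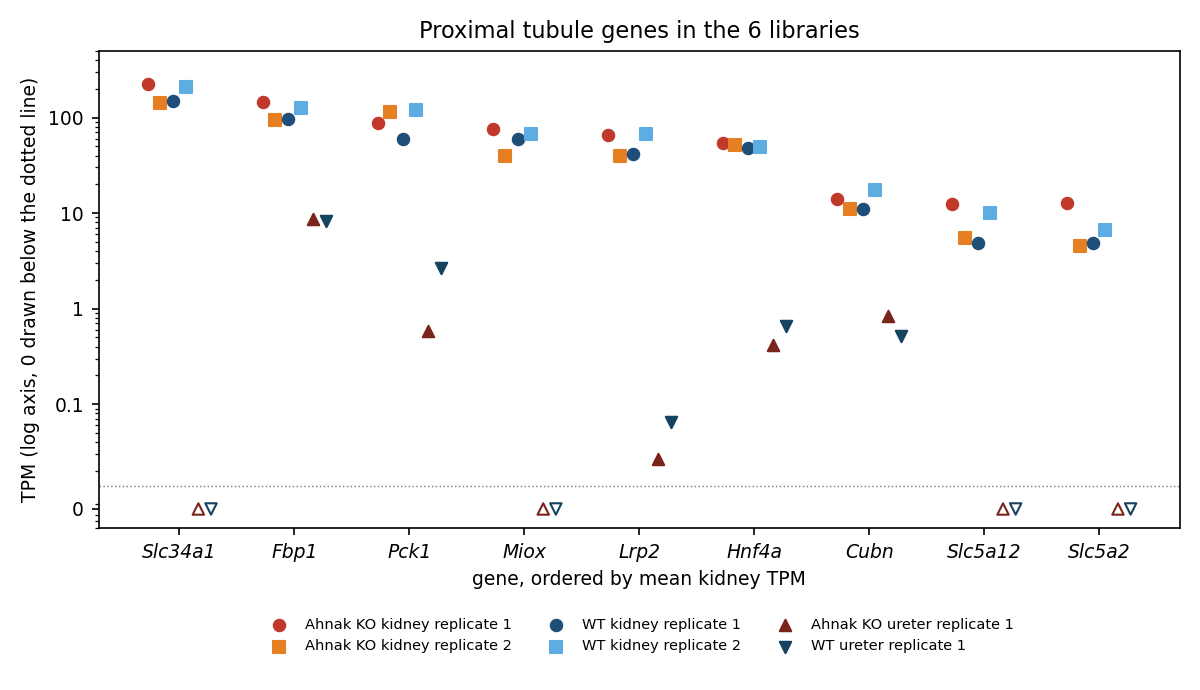
TPM of each gene (log axis, values of 0 drawn below the dotted line) in the 6 libraries, with genes ordered by their mean kidney TPM. The 4 kidney libraries lie above both ureter libraries for every gene, 4 genes are at 0 in both ureters, and Hnf4a has the tightest kidney values.

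The question of tissue was answered by comparing the 4 kidney with the 2 ureter libraries, with genotype as a term. All 9 genes were higher in kidney, and for all 9 the 4 kidney libraries stood above both ureter libraries. Across the 16873 genes tested, 23.7% were called higher in kidney by edgeR's quasi-likelihood test at an adjusted p under 0.05, and 33.1% had all 4 kidney libraries above both ureters. The median log2 difference of the 9 genes was 9.73, or 6.24 when the 4 genes at 0 in both ureters were set at their lower bound, against 0.0756 over all genes tested. In bulk tissue fewer cells of a type and less RNA per cell cannot be told apart.

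The apical transporters were the genes without a ureter signal. Slc34a1 had 19320, 12422, 14978 and 18198 counts in Ahnak KO kidney replicates 1 and 2 and WT kidney replicates 1 and 2, and 0 counts in both ureters. It was at least 2593-fold higher in kidney, taking 3 counts in the shallower ureter library as the floor (adjusted p = 4.18e-05). Slc5a12 had 1782, 807, 812 and 1439 kidney counts in the same order and was at least 195-fold higher (adjusted p = 0.000712). Slc5a2 had 800, 290, 362 and 425 kidney counts and was at least 75.4-fold higher (adjusted p = 0.00103). Both SLC5 genes were thus listed at 0 in the ureters, and the smaller bounds go with their lower kidney counts. The inositol enzyme Miox behaved alike, with 2241, 1177, 2075 and 1992 kidney counts, 0 ureter counts and at least 297-fold more in kidney (adjusted p = 0.000135). The table's counts are estimates, so a 0 is an entry of the table.

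Lrp2, the receptor, was close to absent from the ureters without being at 0. It had 66.2 and 39.5 TPM in the Ahnak KO kidneys, 41.4 and 66.5 TPM in the WT kidneys, 0.0266 TPM (8 counts) in the KO ureter and 0.0658 TPM (31 counts) in the WT ureter. The fitted log2 difference was 9.73 (standard error 0.507, adjusted p = 4.10e-05), an 848-fold higher level in kidney. Cubn, its partner, kept a larger remnant, with 185 counts in the KO ureter and 171 in the WT ureter. In kidney Cubn had 14.1 and 11.0 TPM in Ahnak KO and 11.1 and 17.5 TPM in WT, and its ureter values were 0.837 and 0.512 TPM in KO and WT. The log2 difference of Cubn was 3.94 (standard error 0.357, adjusted p = 0.000334), which is 15.3-fold. On average, ureter TPM came to 5.02% of kidney TPM for Cubn and to 0.0865% for Lrp2, although both proteins serve one receptor complex.

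Hnf4a showed the most even kidney values and a clear ureter difference. Its kidney TPM were 54.1 and 51.2 in Ahnak KO and 48.3 and 48.6 in WT, against 0.421 (36 counts) in the KO ureter and 0.664 (86 counts) in the WT ureter. The log2 difference was 6.14 (standard error 0.193, adjusted p = 8.41e-06), or 70.7-fold. Of the gluconeogenic enzymes, Fbp1 had the highest ureter TPM of the set in both ureters. It had 145 and 93.7 TPM in the Ahnak KO kidneys, 95.5 and 126 TPM in the WT kidneys, and 8.60 and 8.33 TPM in the KO and WT ureters, from 248 and 364 counts. It was 10.4-fold higher in kidney (log2 3.37, standard error 0.234, adjusted p = 0.000111), the smallest difference of the 5 genes that could be fitted. Pck1 had 87.1 and 115 TPM in the Ahnak KO kidneys, 59.8 and 120 TPM in the WT kidneys, 0.590 TPM in the KO ureter and 2.65 TPM in the WT ureter, and it was 47.3-fold higher in kidney (log2 5.56, standard error 0.632, adjusted p = 0.000840).

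**Figure D2:**
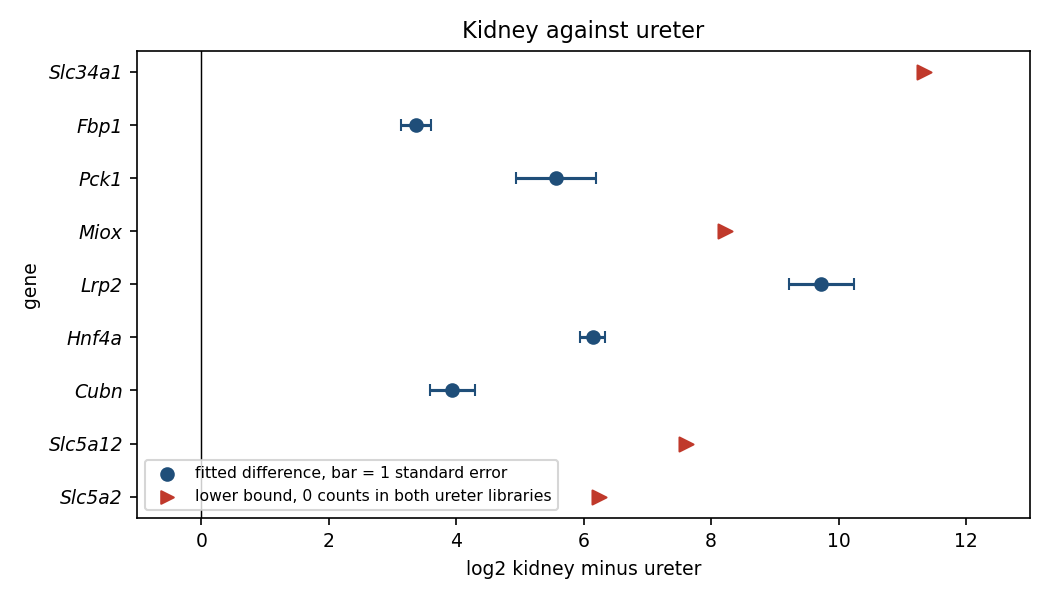
Log2 difference, kidney minus ureter, for each gene: circles are edgeR estimates with bars of 1 standard error, and triangles are lower bounds for genes with 0 counts in both ureter libraries. All 9 lie to the right of 0, from 3.37 for Fbp1 to the bound of 2593-fold for Slc34a1.

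For 3 of these genes the size of the tissue difference moved with the ureter library used. Without the KO ureter library the log2 difference of Pck1 was 4.77, and without the WT ureter library it was 6.92. Lrp2 moved from 9.32 to 10.47 in the same order, and Cubn the other way, from 4.50 to 3.43. In a fit with 1 ureter library the spread comes from kidney libraries only, and the lone ureter library is assumed to vary like them. Other scaling shifts all genes: with library size alone the median over all genes was 0.365 on the log2 scale, and the share of called genes that were higher in kidney went from 52.6% to 72.0%, while 9 of 9 members were still called higher in kidney.

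Other cell types in the ureter libraries were counted beside these values. Of 9 liver markers, 9 were above 0 in both ureters, with Alb at 2037 and 3287 counts in the KO and WT ureters. The 9 summed to 157.5 CPM in the KO ureter and 190.3 CPM in the WT ureter, against 108.2 to 131.2 CPM in kidney. Most of the kidney sum was Afp, at 72.0 to 88.2 CPM there and 9.81 and 21.1 CPM in the KO and WT ureters. Alb went the other way, with 0.4366 to 2.265 CPM in kidney and 68.0 and 63.9 CPM in the KO and WT ureters. Of 8 adipocyte and brown fat markers, Adipoq had 170 counts in the KO ureter and 18 in the WT ureter, Plin1 had 35 and 0, and Ucp1 had 0 and 10. Their summed level was 696.7 CPM in the KO ureter, 437.3 CPM in the WT ureter and 339.4 to 436.6 CPM in kidney, most of it from Fabp4. Liver also expresses Hnf4a, Fbp1 and Pck1, and fat expresses Pck1. The part of these cells in the ureter values of the 3 genes was not tested. Podocyte Nphs1 was at 0 in both ureters and the 7 podocyte markers summed to 138.4 and 109.2 CPM there, most of it from Synpo and Podxl. Of 7 adrenal cortex markers, 5 were at 0 in both ureters, and the share of all genes at 0 in both was not counted.

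Genes of the same pathways followed the members to different degrees. Their counts stand against 23.7% of all 16873 genes tested called higher in kidney and 21.4% called higher in ureter, by edgeR at an adjusted p under 0.05. Of 39 other proximal tubule transport and enzyme genes tested, 34 were higher in kidney and 2 in ureter. Their median log2 difference was 7.94, or 5.30 with 19 genes at their bound. Of 40 such genes, 20 were at 0 in both ureters. For comparison, 8530 of all 24532 genes were at 0 in the KO ureter and 8291 in the WT ureter. The share of all genes at 0 in both was not counted. Among 13 further phosphate, glucose and monocarboxylate transport genes 9 were higher in kidney and 0 in ureter, with a median of 1.73. Pdzk1, the scaffold that holds NaPi-IIa in the brush border, had 136 to 240 TPM in kidney and 1.34 and 0.503 TPM in the KO and WT ureters. Slc9a3r1, a second scaffold of the same transporters, differed much less, with 106 to 129 TPM in kidney and 68.0 and 79.2 TPM in the ureters (log2 0.34, adjusted p = 0.0273).

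Among the endocytic partners of megalin 5 of 9 were higher in kidney and 2 in ureter, with a median of 0.40, against the same 23.7% and 21.4% of all genes tested. Lrpap1, the chaperone that megalin needs to fold, had 117 to 131 TPM in kidney and 63.3 and 65.2 TPM in the KO and WT ureters, while the adaptor Gipc1 was higher in ureter (log2 -0.53, adjusted p = 0.0293). Gluconeogenesis and fructose genes had 7 of 10 higher in kidney and 1 in ureter, with a median of 1.22. Sord, which makes fructose from sorbitol, had 60.3 to 81.5 TPM in kidney and 31.8 and 34.8 TPM in the KO and WT ureters. Of 10 inositol and glucuronate genes 6 were higher in kidney and 0 in ureter, with a median of 0.64. Isyna1, which makes inositol, was higher in kidney (log2 1.33, adjusted p = 0.000126), and Akr1a1, which reduces glucuronate, had a log2 difference of 0.07 (adjusted p = 0.601). Of 8 transcription factors 5 were higher in kidney and 1 in ureter, with a median of 2.04. Esrra, a nuclear receptor of mitochondrial genes, had a log2 difference of -0.09 (adjusted p = 0.514).

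The genes most like the members were found by comparing profiles over the 6 libraries. Each of 14587 genes with a mean of at least 1 CPM was centred on its own mean of log2(CPM + 0.5) and set against the median profile of the 9 genes, which ran from -3.92 in the KO ureter to 2.18 in Ahnak KO kidney replicate 1. The 5 nearest non-members were Acsm1, Dpp4, Gm10639, Slc22a2 and Dao, with root mean squared differences of 0.211, 0.240, 0.248, 0.255 and 0.260 on the log2 scale. Dpp4, a brush border peptidase, had 182.1 to 274.8 CPM in kidney, and Slc22a2, an organic cation transporter of the basal side, had 20.7 to 30.8 CPM in kidney and 0 in both ureters. Points of such a profile share their libraries, so the likeness describes these 6 libraries.

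The question of genotype in kidney gave no call among the members. At an adjusted p under 0.05, 0 of 9 were called by edgeR and 0 by the Wald test of DESeq2. Before adjustment, edgeR gave 0 of 9 a p under 0.05. Across 16481 genes tested 2 passed in edgeR, which is 0.0121%, 227 had an unadjusted p under 0.05, and DESeq2 called 44. With so few genes called over the whole table, the 0 of 9 does not set the members apart. The median log2 difference of the members, Ahnak KO minus WT, was 0.13, against -0.004 over all genes tested, and 6 of 9 estimates were above 0.

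Single estimates were small beside their errors for most genes. On the log2 scale Lrp2 differed by -0.005 (standard error 0.289), Cubn by -0.16 (0.231) and Slc34a1 by 0.06 (0.243). Slc5a2 had the largest estimate, 0.59 (0.464), with 9.05 ± 5.86 CPM in Ahnak KO and 6.04 ± 1.33 CPM in WT (SD, n = 2 each). Slc5a12 differed by 0.30 (0.453), Fbp1 by 0.13 (0.222), Pck1 by 0.21 (0.327) and Miox by -0.12 (0.285). All had adjusted p values of 0.9999. Hnf4a was the only member whose genotypes did not overlap, with 109.9 and 108.9 CPM in Ahnak KO and 98.4 and 99.0 CPM in WT, a log2 difference of 0.15 (0.097). Both Ahnak KO libraries stood above both WT libraries for 12.7% of all genes tested, so 1 of 9 lies near the background. These standard errors do not show that the genotypes act alike: with 2 libraries per genotype a difference of the size of these errors was not detectable.

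**Figure D3:**
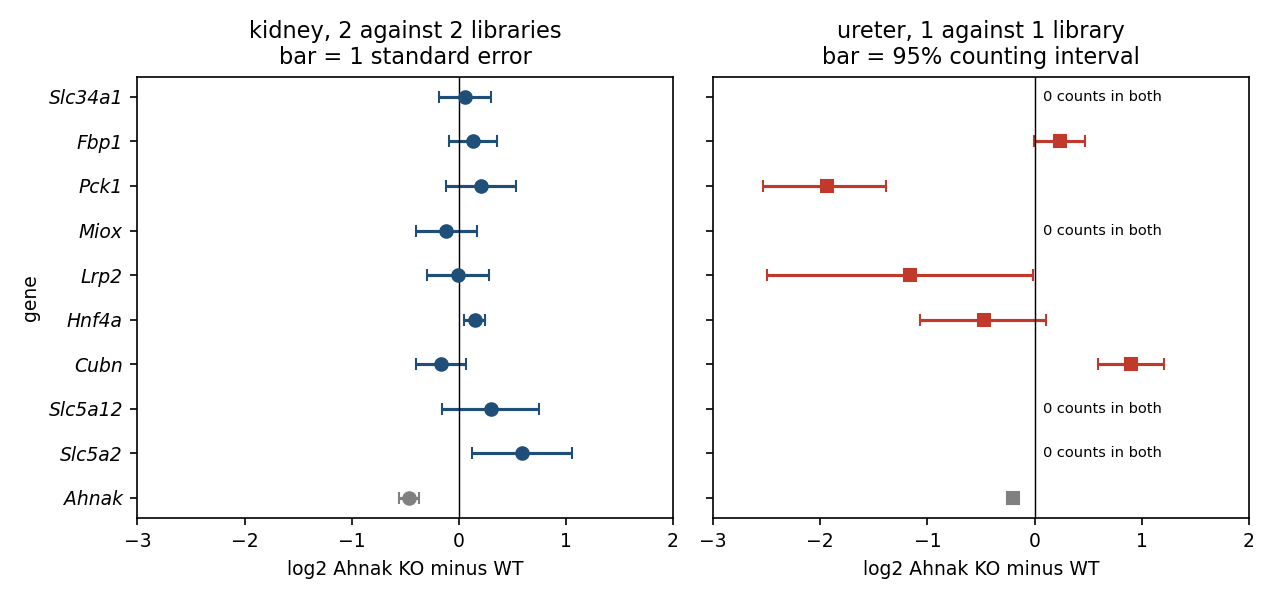
Log2 difference, Ahnak KO minus WT, of each gene and of Ahnak: left, kidney with bars of 1 standard error (n = 2 per genotype); right, ureter with 95% counting intervals (1 library per genotype, no pseudocount). Kidney estimates lie between -0.16 and 0.59 for the 9 genes, and in ureter Pck1 lies lowest and Cubn highest.

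Kidney libraries of one genotype also differed from each other. Slc5a2 had 12.6 and 4.47 TPM in the Ahnak KO kidneys and 4.85 and 6.64 TPM in the WT kidneys. Slc5a12 had 12.4 and 5.52 TPM in Ahnak KO and 4.81 and 9.98 TPM in WT, and Slc34a1 had 223 and 141 TPM against 147 and 209 TPM. Lrp2, Cubn and Fbp1 followed the same order, with Ahnak KO replicate 1 above replicate 2 and WT replicate 2 above replicate 1. Miox had 76.2 and 39.2 TPM in Ahnak KO and 60.05 and 67.2 TPM in WT, so replicate 2 of Ahnak KO stood apart from the rest. Pck1 went otherwise, with its highest values in both replicates numbered 2. For 8 of 9 members the larger of the within-genotype ranges exceeded the difference between the genotype means on the log2 scale, and Hnf4a was the exception. The share of all genes for which this held was not counted, so it does not set the members apart. Such an excess is also common without any genotype effect, since the means average over libraries and the ranges do not. From lowest to highest kidney library, CPM differed 2.69-fold for Slc5a2, 2.57-fold for Slc5a12 and 2.01-fold for Pck1. The span was 1.86-fold for Miox, 1.61-fold for Lrp2, 1.57-fold for Cubn, 1.52-fold for Slc34a1, 1.51-fold for Fbp1 and 1.12-fold for Hnf4a.

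Centred on the mean over the 4 kidney libraries, the members' median log2 level was 0.33 and -0.28 in Ahnak KO replicates 1 and 2 and -0.27 and 0.23 in WT replicates 1 and 2. The 39 other proximal tubule genes had medians of 0.22, -0.17, -0.18 and 0.18, and the 7 podocyte markers stood at 0.20, -0.10, -0.12 and 0.04. For all genes tested the median stayed between -0.004 and 0.006. Ahnak KO replicate 1 exceeded replicate 2, and WT replicate 2 exceeded replicate 1, for 8 of 9 members and 28 of 39 other proximal tubule genes, against 30.3% of all genes tested. The same order held for 6 of 7 podocyte markers and for 1 of 7 collecting duct markers. This order was taken from the members' own values, so the members' count only describes them. Kap, an androgen-regulated tubule gene and the most abundant of the other proximal tubule genes, ran the other way, with 426 and 831 TPM in Ahnak KO and 847 and 248 TPM in WT. The 7 collecting duct markers had medians of -0.002, 0.03, 0.05 and -0.12. Ahnak KO replicate 1 was also the library with Xist and without Y chromosome counts. WT replicate 2, which had Y chromosome counts, shared the higher levels. The part of sex, or of the podocyte content that moved with it, in this spread was not tested. Without Ahnak KO replicate 1 or WT replicate 1 the members' median genotype difference was -0.30 or -0.18, and without Ahnak KO replicate 2 or WT replicate 2 it was 0.29 or 0.35, so its direction depended on single libraries.

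**Figure D4:**
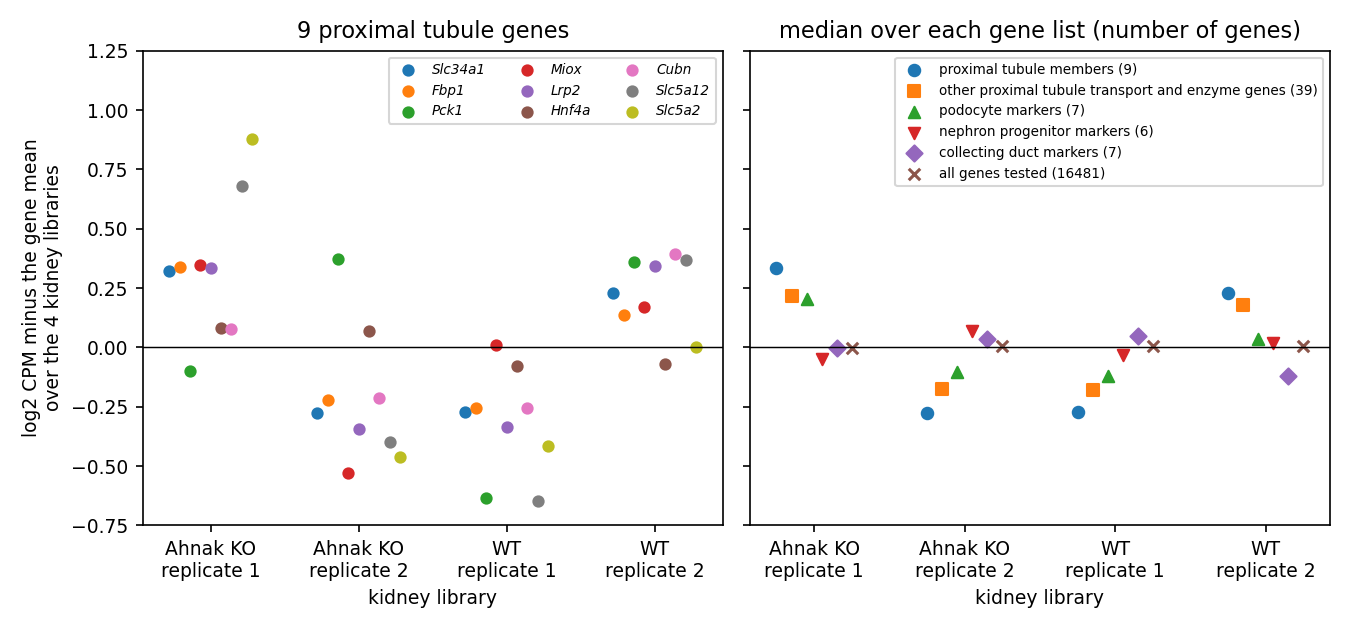
Log2 CPM minus the gene's mean over the 4 kidney libraries, for the 9 genes (left) and as the median of 6 gene sets (right, number of genes in the key). Most members lie above 0 in Ahnak KO replicate 1 and WT replicate 2 and below it in the other kidney libraries, Hnf4a stays within 0.08 of 0, and the median of all genes stays near 0.

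Every other list of tubule, pathway and cell type genes also gave 0 calls by genotype in kidney in edgeR. Their median log2 genotype differences ran from -0.12 for loop of Henle and distal tubule markers to 0.15 for adipocyte markers, with 0.07 for the other proximal tubule genes. Tubule injury genes, 7 in all and including Spp1 and Clu, had a median of 0.05 in kidney. For these lists the tissue comparison gave 6 of 7 podocyte, 6 of 6 nephron progenitor, 6 of 7 loop and distal and 5 of 7 collecting duct markers higher in kidney. It gave 3 of 6 fat markers tested and 4 of 9 liver markers higher in ureter, 2 of 9 liver markers higher in kidney, 2 of 4 adrenal markers tested higher in kidney and 1 in ureter, and 3 of 7 injury genes in each direction. Of all genes tested, 23.7% were called higher in kidney and 21.4% higher in ureter. The podocyte, nephron progenitor, loop and distal and collecting duct counts lie above that kidney share, and 2 of 9 liver markers lies near it. These lists hold 4 to 9 genes tested each, so the counts describe them, and no list was tested as a set.

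In ureter 1 library stood for each genotype, so no spread between ureter libraries could be had, and intervals cover counting error only. Slc34a1, Slc5a2, Slc5a12 and Miox were at 0 counts in both, which gives no fold. Of the 5 members with at least 10 counts in a ureter library, 1 was lower in the KO ureter by over 2-fold with 0.5 CPM added, against 5.78% of all 16117 genes with that many counts. Without the added 0.5 CPM 2 of the 5 were, Pck1 and Lrp2, against 10.8% of those genes. Pck1 stood lowest, with 31 counts in the KO and 205 in the WT ureter and a log2 ratio of -1.94 (95% counting interval -2.53 to -1.39) or -1.50 with 0.5 CPM added. Cubn had 185 and 171 counts from libraries of unequal size, a log2 ratio of 0.90 (0.593 to 1.21). Lrp2, with 8 and 31 counts, had a ratio of -1.17 (-2.50 to -0.014). Hnf4a had -0.47 (-1.07 to 0.108) and Fbp1 0.23 (-0.005 to 0.470), both with intervals that include 0. The median of the 5 with 0.5 CPM added was -0.33, against -0.02 over all genes with that many counts. Cubn and Lrp2, partners in one receptor complex, thus had ratios of opposite sign.

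Whether the genotype difference itself differed between tissues was tested in a fit of 4 groups, in which the lone ureter libraries are assumed to vary like kidney libraries. Of the 5 members with ureter counts 0 passed, and the other 4, at 0 in both ureters, carry no value of this kind. Of 17557 genes tested 19 passed, which is 0.108%, and 2174 had an unadjusted p under 0.05. For Pck1 the ureter difference minus the kidney difference was -2.15 on the log2 scale (standard error 0.703, edgeR adjusted p = 0.311, DESeq2 adjusted p = 0.0213). Hnf4a had -0.62 (0.225, adjusted p = 0.354), Cubn 1.07 (0.439, adjusted p = 0.409) and Lrp2 -1.15 (0.800, adjusted p = 0.628). Fbp1 had 0.10 (0.412, adjusted p = 0.9999). Pck1 was therefore the 1 member whose call turned on the tool, and DESeq2 called 2.94% of the 16195 genes to which it gave an adjusted p. Of the 9 liver markers, 6 were lower in the KO ureter, 2 of them by over 2-fold with 0.5 CPM added. Of all 16117 genes with at least 10 counts in a ureter library, 5.78% were lower by over 2-fold on that measure. The share of those genes that were lower by any amount was not counted, so the 6 of 9 does not set the list apart. The sum of the 9 was 157.5 CPM there against 190.3 CPM in the WT ureter. Ttr had 25.1 and 50.4 CPM in the KO and WT ureters, and Afp 9.81 and 21.1 CPM. With 0.5 CPM added their log2 ratios were -0.98 and -1.05, so Afp was past 2-fold and Ttr was not. Alb was not lower in the KO ureter, with 68.0 CPM there and 63.9 CPM in the WT ureter. Of the 8 fat markers, 3 were lower in the KO ureter and 2 were higher by over 2-fold, against 715 of the 16117 genes higher by over 2-fold. Their sum was 696.7 CPM in the KO and 437.3 CPM in the WT ureter, most of it from Fabp4, at 544.7 and 274.7 CPM. Fabp4 also had 323.8 to 419.9 CPM in kidney, where Adipoq had 0 to 4 counts. The part of either cell type in the Pck1 value was not tested.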

How the data were processed

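RNA from 4 kidney and 2 ureter samples was sequenced. The authors deposited, per gene and library, an estimated count given as a whole number, which was not normalized, with the authors' FPKM and TPM. The submitters' processing notes name Trimmomatic 0.38, HISAT2 2.1.0 and StringTie 1.3.4b with mm10, whereas the methods name Cutadapt, STAR and Cufflinks with a later build, and the table is named for mm10. Gene numbers matched RefSeq for 24462 genes and 27 symbols turned into dates were restored. The libraries held 36410246 to 66095616 counts.

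The quasi-likelihood test of edgeR 4.0.16 in R 4.3.3 was run on the estimated counts after filterByExpr and TMM scaling, with Benjamini-Hochberg adjustment over all genes, although the tests had been planned for read counts. Residual degrees of freedom were 3 for tissue and 2 otherwise. Standard errors are approximate, from the log2 difference and the F statistic. The fits were tested on simulated data. Alternatives used DESeq2 1.42.0, limma 3.58.1 on log2(FPKM + pseudocount of 1 or 0.1), other scaling, no filter, blocks and leaving out each library. Ureter libraries were compared by log2(CPM + 0.5) and by exact intervals of 95% from the counts. Counts of genes called in lists stand beside those over all genes. The members, the lists and the rule for naming genes (the members and Ahnak, the 2 genes of highest mean TPM per list, the 5 most similar genes, some of which are not reported here) were chosen with earlier results of these data known. Of markers outside the tubule pathways, single genes were also named after their values were seen (Alb, Adipoq, Plin1, Ucp1, Umod, Nphs1, Synpo, Xist and Rn45s).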

Additional observations from a re-analysis of the deposited data

Results flagged for a closer look

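Hnf4a was singled out because its genotypes did not overlap in kidney and lay in the opposite order in ureter. Both Ahnak KO kidney libraries stood above both WT kidney libraries, whereas the KO ureter library stood below the WT ureter library, at 1.20 and 1.67 CPM. The genotype difference in ureter minus that in kidney was -0.62 on the log2 scale (standard error 0.225, edgeR across 17557 genes, unadjusted p = 0.0345, adjusted p = 0.354), so it failed the correction. Its adjusted p ran from 0.203 to 0.628 over the alternatives. The ureter values rest on 36 and 86 counts in 1 library each, and the 95% counting interval of their log2 ratio, -1.07 to 0.108, includes 0. Pck1 and Cubn also had estimates of opposite sign in the tissues, but their kidney genotypes overlapped.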

How the results depend on the processing

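All 9 members were called higher in kidney under every alternative run (other scaling, DESeq2, no filter, limma on FPKM, each genotype alone, each library left out, Rn45s left out, libraries that share a number), with fits of 1 ureter library taking their spread from kidney libraries only. Between genotypes in kidney 0 of 9 were called under the alternatives run there (other scaling, DESeq2, no filter, limma on FPKM, each kidney library left out, either block, and all 6 libraries in 1 fit). The members' median tissue difference, 9.73, was 4.33 and 5.87 (limma with 1 and 0.1 FPKM added), 10.47 and 9.33 (Ahnak KO and WT libraries only), and 9.32 to 10.47 with a library left out. Genes called by tissue, 7595, fell to 4841 in the 4 libraries that share a number in their column names, added after seeing the data. The 2 genes called by genotype in kidney became 44 with DESeq2, 0 and 0 with limma (1 and 0.1 FPKM added), and 46, 87, 10 and 3 without Ahnak KO replicate 1, Ahnak KO replicate 2, WT replicate 1 and WT replicate 2. Kidney libraries share replicate numbers whose meaning is not given, and deviations of same-numbered libraries correlated at -0.193. With the replicate block 0 genes were called and the members' median was 0.12; with a crossed replicate block, added after seeing the data, 1 gene was called. Leaving out a library moved the members' median genotype difference between -0.30 and 0.35. Single genes turned sign in the same way, over -0.39 to 0.38 for Lrp2, -0.46 to 0.20 for Cubn, -0.28 to 0.33 for Slc34a1, -0.30 to 1.13 for Slc5a2, -0.36 to 0.92 for Slc5a12, -0.18 to 0.39 for Fbp1, -0.21 to 0.80 for Pck1 and -0.64 to 0.26 for Miox, while Hnf4a stayed between 0.14 and 0.16. DESeq2 called 1 member in the difference of genotype effects between tissues, Pck1, where edgeR called 0, and over all genes it called 2.94% where edgeR called 0.108%. For Fbp1 that difference, 0.10, was -0.076 with library size alone and -0.15 to 0.42 with a library left out. The causes were not tested. Depth limits the ureter values, where 3 counts are 0.0583 and 0.1001 CPM.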
